A study of Mus musculus with 12 samples.

Results

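The genes described here are 56 collagen, elastic fibre and other extracellular matrix genes of the mouse lung, taken by symbol from a written list of collagens, elastic fibre components, basement membrane proteins, proteoglycans, crosslinking enzymes and remodelling enzymes. All 56 were among the 19726 genes of the deposited table, and all 56 were among the 15863 that passed the filter on low counts and were tested. RNA sequencing was done on lungs of mice whose strain is labelled IRC, with 12 libraries in 4 groups of 3. Control animals were untreated, and the AOS group received alginate oligosaccharides, short sugar chains cut from a seaweed polysaccharide, at 10 mg/kg for 5 weeks. A single 40 mg/kg dose of busulfan, a DNA-crosslinking drug, defined the busulfan group. In the combined group a single dose of busulfan, of a size not restated for it, preceded the same 5-week course of AOS at 10 mg/kg. No age, sex or time of tissue collection was used, and whether the libraries of a group are separate animals is not stated in the labels, so p-values measure the spread between libraries, which may be technical.

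The extracellular matrix of the lung is made mainly by fibroblasts and, at the basement membrane, also by epithelial and endothelial cells. Fibrillar collagens give the tissue tensile strength, elastin with its microfibrils lets it recoil, and sheets of type IV collagen and laminin underlie the alveolar epithelium and the capillaries. Collagen chains are hydroxylated and folded in the endoplasmic reticulum with the help of dedicated enzymes and a chaperone, are secreted, and are then crosslinked outside the cell by lysyl oxidases. Busulfan is known clinically as a cause of lung fibrosis, in which such matrix accumulates, and the matrix genes were therefore compared class by class.

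Library totals ranged from 16209221 to 17168764 estimated counts. The labelled tissue is "Cells", although titles and protocol say lung. The lung identity was checked with Sftpc, a surfactant gene of alveolar type II cells, at 10123 to 15437 CPM (estimated counts scaled to library size, normalised by TMM) over the 12 libraries, and with Ager, a marker of alveolar type I cells, at 1490 to 2040 CPM. Transcripts of other tissues stood out in 3 libraries without busulfan. Acta1, skeletal muscle actin, reached 736 CPM in control 2, Alb, the liver's albumin, reached 683 CPM in control 3, and the fat cell genes Cfd and Adipoq reached 390 and 122 CPM in AOS 1. With busulfan, Alb reached 482 CPM in combined 1 and Acta1 reached 202 CPM in combined 3, whose summed skeletal muscle markers, 628 CPM, exceeded those of control 3 (287 CPM) and AOS 1 (309 CPM). The choice of these genes followed a look at their values, and the main counts are given with and without the 3 libraries and all 5.

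Levels of the 56 genes in control lung were compared per gene length, in FPKM. Sparc, a collagen-binding matricellular protein, led at 747 ± 28.2 (SD, n = 3), followed by the microfibril-associated gene Mfap4 at 613 ± 198 and the proteoglycans Bgn at 519 ± 59.4 and Ogn at 329 ± 31.1. The inhibitors Timp3 and Timp2 came next at 225 ± 9.95 and 221 ± 10.3, then Col4a1 at 171 ± 15.4 and Col3a1 at 160 ± 14.1. Mfap4 overlapped its neighbours within the SD, Timp3 and Timp2 did not differ beyond theirs, and neither did Col4a1 and Col3a1. At the low end were Vcan at 1.10 ± 0.199, Thbs2 at 0.660 ± 0.0985 and Col16a1 at 0.413 ± 0.0971.

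The averaged busulfan comparison set the 6 libraries with busulfan against the 6 without it, giving animals with and without AOS equal weight. In it 19 of the 56 matrix genes rose and 0 fell, which is 33.9% higher against a background of 7.02% of all genes tested that rose and 4.81% that fell (edgeR quasi-likelihood test, Benjamini-Hochberg adjusted p under 0.05). The list was chosen with earlier results of these data known, so its shares beside those of all genes are descriptive only, here and below. With upper-quartile factors the split over all genes turned from 1114 higher and 763 lower to 767 and 1092, and the matrix genes called were 16 higher and 0 lower, against 4.84% of all genes higher. At an unadjusted p under 0.05 the number of matrix genes was 30, against 29.2% of all genes in either direction. The median log2 fold change of the 56 genes was 0.25, against -0.01 over all genes tested, and 50 of the 56 values were above 0, against 47.8% of all genes. The TMM-normalised levels of the 56 genes summed to 14336 to 16976 CPM without busulfan and 17900 to 21861 CPM with it, so the groups did not overlap. In bulk tissue, a change in the number of cells of a type and a change in the RNA per cell cannot be told apart.

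The classes were then counted one by one in the same fit, in which 7.02% of all genes tested rose and 4.81% fell. In collagen processing and crosslinking 6 of 7 rose, with a median log2 fold change of 0.59. In the basement membrane class 6 of 12 rose, with a median of 0.27. Among adhesive and matricellular glycoproteins 2 of 7 rose (median 0.33), among proteoglycans 2 of 5 (median 0.12), among metalloproteinases and their inhibitors 2 of 6 (median 0.20), and among elastic fibre genes 1 of 9 (median 0.19). None of the 5 fibrillar collagens (median 0.20) and none of the 5 microfibrillar and fibril-associated collagens (median 0.14) passed the threshold in this test. Differences between classes were not tested.

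**Figure D1:**
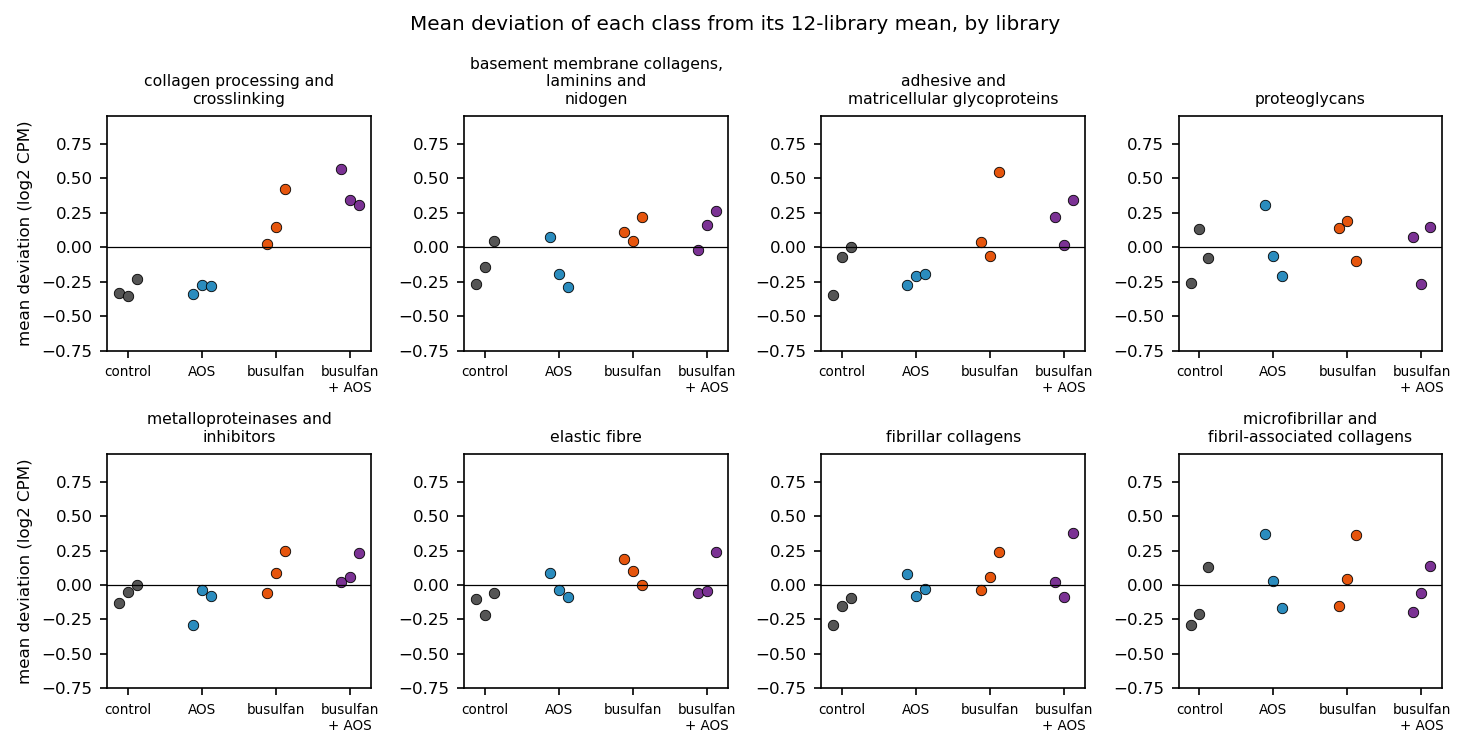
Mean deviation of each class of matrix genes from its mean over the 12 libraries, in log2 CPM, with 1 point per library and 1 panel per class, for the control, AOS, busulfan and combined groups. The 6 libraries with busulfan lie above the 6 without it in the collagen processing panel, between 0.03 and 0.57 against -0.35 and -0.23, while in each of the other 7 panels the libraries with and without busulfan overlap.

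The number of genes called depended on the tool and on the libraries kept. DESeq2 called 24 of 56 in the averaged comparison, against 9.71% of all genes called higher, and its 5 further genes were Col5a1, Col4a4, Lama4, Mfap4 and Tnc. The fit with the replicate number as a block called 17, Tnc among them, against 5.3% of all genes. Without control 3 the count was 20, with Mfap4 and Col18a1 gained, against 6.15% of all genes. Without control 1, the count in the averaged comparison was 12 of 56, against 4.53% of all genes called higher. With control 2, control 3 and AOS 1 left out together, a comparison added after seeing the data that leaves 3 libraries without busulfan and only 1 control, the count was 1 of 56, Postn, against 0.435% of all genes. The median log2 fold change of the 56 genes in that smaller fit was 0.30, and 52 of the 56 values were above 0. With combined 1 and combined 3 left out as well, also added after seeing the data, 0 of 56 genes passed, against 0.0124% of all genes. The median was then 0.28, with 48 of the 56 values above 0. Without the first 3 libraries Serpinh1 was at a log2 fold change of 1.05 with an SE of 0.19 (adjusted p = 0.0688), P4ha1 at 1.17 with an SE of 0.25 (adjusted p = 0.0945) and Lox at 0.53 with an SE of 0.13 (adjusted p = 0.117).

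Collagen processing and crosslinking genes held the largest called changes. Serpinh1 (Entrez gene 12406) encodes HSP47, the collagen-specific chaperone of the endoplasmic reticulum. It stood at 236, 213 and 269.5 CPM in control lung, 236, 218 and 232 with AOS, 322, 383 and 521 with busulfan, and 708, 486 and 496 with both. Every library with busulfan was above every library without it, and the highest value was in the combined group. The averaged comparison gave a 2.05-fold rise (log2 fold change 1.04, SE 0.13, adjusted p = 0.00199).

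P4ha1 and P4ha2 (Entrez genes 18451 and 18452) encode catalytic subunits of collagen prolyl 4-hydroxylase, which stabilises the triple helix. P4ha1 was measured at 119, 109 and 136 CPM in control lung, 108, 106 and 124 with AOS, 168, 203 and 313 with busulfan, and 399.7, 280.0 and 237 with both, with no overlap between libraries with and without busulfan. Its rise was 2.26-fold (log2 fold change 1.18, SE 0.17, adjusted p = 0.00312). P4ha2 was measured at 33.6, 29.4 and 31.2 CPM in control lung, 27.7, 31.4 and 39.4 with AOS, 39.2, 47.4 and 58.3 with busulfan, and 75.3, 55.0 and 52.4 with both. Its groups overlapped by 1 library, since busulfan 1 lay just under AOS 3, and its rise was 1.69-fold (log2 fold change 0.76, SE 0.13, adjusted p = 0.00668).

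The promoters of these 3 genes are shown because these genes had the largest called changes of the 56. Each sequence runs 5′ to 3′ on the strand of its gene, from RefSeq on GRCm38.p6. It covers 250 bases before to 50 bases after a single start site, and a gene may have others. The annotated P4ha1 gene begins at 59323197, so the start site used for its window lies inside the gene. Capitals mark ACGTG, the core letters of the hypoxia response element, on either strand. The windows are chr7:99353190-99353489 on the minus strand for Serpinh1, chr10:59323046-59323345 on the plus strand for P4ha1 and chr11:54100674-54100973 on the plus strand for P4ha2.
Serpinh1: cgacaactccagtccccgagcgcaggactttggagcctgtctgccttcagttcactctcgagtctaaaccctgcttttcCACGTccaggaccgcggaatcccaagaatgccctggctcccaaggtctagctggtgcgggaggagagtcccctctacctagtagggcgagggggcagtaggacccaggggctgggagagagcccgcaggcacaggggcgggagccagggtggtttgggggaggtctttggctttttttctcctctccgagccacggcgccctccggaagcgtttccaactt
P4ha1: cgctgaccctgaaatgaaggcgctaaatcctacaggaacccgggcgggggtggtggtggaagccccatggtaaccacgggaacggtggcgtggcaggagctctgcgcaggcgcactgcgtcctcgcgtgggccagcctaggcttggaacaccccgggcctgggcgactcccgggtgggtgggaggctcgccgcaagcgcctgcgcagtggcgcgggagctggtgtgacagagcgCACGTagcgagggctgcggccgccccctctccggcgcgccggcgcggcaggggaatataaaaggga
P4ha2: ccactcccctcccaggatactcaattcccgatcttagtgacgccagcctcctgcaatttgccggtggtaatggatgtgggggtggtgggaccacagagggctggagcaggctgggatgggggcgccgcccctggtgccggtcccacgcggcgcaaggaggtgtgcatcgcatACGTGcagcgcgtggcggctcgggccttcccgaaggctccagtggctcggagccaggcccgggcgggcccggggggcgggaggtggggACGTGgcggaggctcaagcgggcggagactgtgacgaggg

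The RefSeq table held such a window for 39 of the 56 genes. ACGTG was found in 9 of these 39 genes, where a match in any window of a gene counted, and in 19.6% of all 32851 promoter windows of the same length. Besides the genes printed above, it was found in Col4a4, Col5a1, Col1a2, Mmp14, Fbln1 and Timp1. None of those passed the threshold in the averaged busulfan comparison in edgeR. The letters GAANNTTC, a form of the heat shock element core, were found in 0 of the 39 and in 7.86% of all windows. This form reads the same on both strands. The form with its GAA and TTC units in the reverse order was not searched, and the printed P4ha2 window holds it. The 0 therefore cannot show that these promoters lack a heat shock element core. These matches describe the letters of the windows only.

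Lox, the copper-dependent lysyl oxidase that starts the crosslinking of collagen and elastin, stood at 125, 127 and 113 CPM in control lung, 113, 156 and 117 with AOS, 163, 200.2 and 179 with busulfan, and 192, 227 and 174 with both. All 6 values with busulfan exceeded the 6 without (log2 fold change 0.59, SE 0.10, adjusted p = 0.00549). Plod2, the lysyl hydroxylase that prepares collagen for stable crosslinks, was found at 70.4, 73.1 and 84.7 CPM in control lung, 72.6, 76.2 and 75.5 with AOS, 88.3, 82.3 and 101 with busulfan, and 104, 96.0 and 83.1 with both. Here 4 of the 6 busulfan libraries exceeded all libraries without the drug (log2 fold change 0.29, SE 0.07, adjusted p = 0.0281). On leaving out 1 library at a time, Plod2 lost its call without control 1, control 2, AOS 1, AOS 2, AOS 3, busulfan 3, combined 1 or combined 2, with adjusted p up to 0.0659. Loxl2, a related oxidase active on type IV collagen, was at 36.4, 49.4 and 46.0 CPM in control lung, 51.2, 47.7 and 40.9 with AOS, 52.5, 50.8 and 62.6 with busulfan, and 60.0, 53.6 and 64.2 with both, with 5 of 6 libraries above all without busulfan (log2 fold change 0.34, SE 0.09, adjusted p = 0.0393). On leaving out 1 library at a time, Loxl2 lost its call without control 1, control 3, AOS 2, AOS 3, busulfan 1, busulfan 3, combined 1, combined 2 or combined 3, with adjusted p up to 0.0885. Loxl1, the lysyl oxidase of elastic fibres, did not pass the threshold, at 108, 94.3 and 108 CPM in control lung, 106, 105 and 104 with AOS, 117, 108 and 121 with busulfan, and 103, 101 and 127 with both (log2 fold change 0.11, SE 0.06, adjusted p = 0.266). Its 95% interval ran from -0.03 to 0.25 on the log2 scale.

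**Figure D2:**
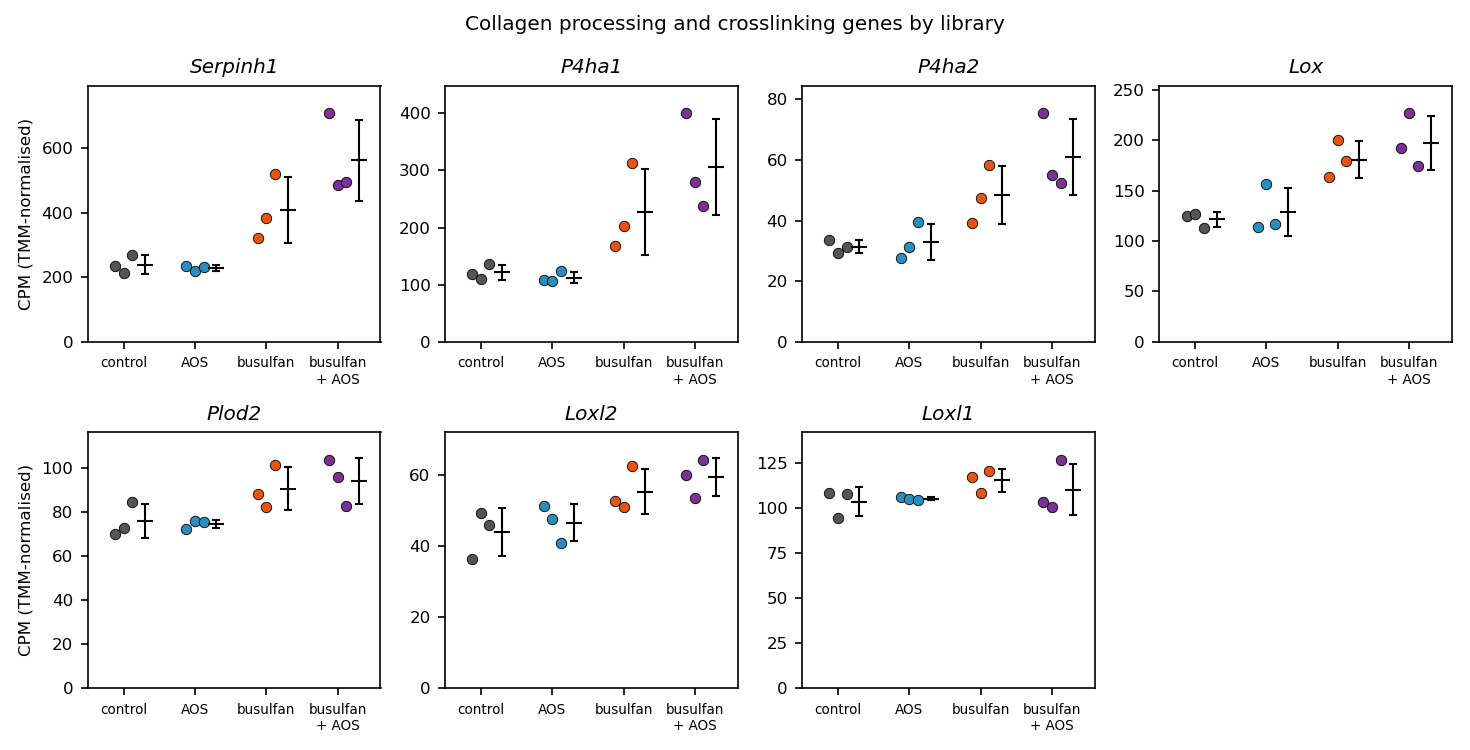
Levels of the 7 collagen processing and crosslinking genes in CPM (TMM-normalised), 1 point per library in the control, AOS, busulfan and combined groups, with the group mean and SD (n = 3) as a bar beside the points. Serpinh1, P4ha1 and Lox have no overlap between libraries with and without busulfan, and Serpinh1 reaches 708 CPM in 1 library of the combined group, against at most 269.5 CPM without busulfan.

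Chaperones of the endoplasmic reticulum and cytosol moved in the same libraries. Hspa5, which encodes the folding chaperone BiP, was at 494 to 620.0 CPM without busulfan and 816 to 1397 CPM with it (log2 fold change 1.02, SE 0.08, adjusted p = 0.000129). Hsph1, a cytosolic heat shock protein, was at 109 to 238 CPM without and 202 to 1393 CPM with busulfan (log2 fold change 2.16, SE 0.39, adjusted p = 0.00894). Both were highest in combined library 1, which also held the highest Serpinh1, P4ha1, P4ha2 and Plod2. The choice of both followed a look at their values, and their part in the changes of the collagen processing genes was not tested.

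The basement membrane is the sheet that carries the alveolar epithelium and the capillary wall, and its network is built of type IV collagen and laminin joined by nidogen. Of its 12 genes, 6 rose in the averaged busulfan comparison, against 7.02% of all genes tested. Col4a1 and Col4a2 encode the chains of the widespread form of type IV collagen and lie head to head on chromosome 8. Their promoters are printed because the pair shares its start region. The start sites used for the printed windows are 21 bases apart, and the windows share 78 bases. For Col4a1 the start site used is 11312826, while the annotated gene reaches 11312889, so the distance depends on the start site taken. Capitals mark CCAAT on either strand. This box was found in 18 of the 39 matrix genes, where a match in any window of a gene counted, and in 37.4% of all windows. A count by gene and a share of windows are unlike measures. The windows are chr8:11312777-11313076 on the minus strand for Col4a1 and chr8:11312555-11312854 on the plus strand for Col4a2 (GRCm38.p6).
Col4a1: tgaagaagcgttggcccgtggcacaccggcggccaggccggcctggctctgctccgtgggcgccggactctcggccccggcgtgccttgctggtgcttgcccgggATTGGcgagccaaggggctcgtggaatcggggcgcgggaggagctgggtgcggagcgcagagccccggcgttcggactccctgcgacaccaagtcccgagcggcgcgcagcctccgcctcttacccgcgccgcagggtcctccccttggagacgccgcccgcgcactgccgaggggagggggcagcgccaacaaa
Col4a2: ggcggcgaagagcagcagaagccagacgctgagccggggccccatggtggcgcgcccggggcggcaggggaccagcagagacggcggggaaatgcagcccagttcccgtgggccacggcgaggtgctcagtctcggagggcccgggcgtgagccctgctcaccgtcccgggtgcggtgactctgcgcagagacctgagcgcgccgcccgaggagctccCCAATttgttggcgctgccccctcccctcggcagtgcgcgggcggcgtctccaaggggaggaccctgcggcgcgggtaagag

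Col4a1 stood at 1033, 1031 and 1213 CPM in control lung, 1114, 1046 and 953 with AOS, 1371, 1196 and 1732 with busulfan, and 1292, 1439 and 1520.3 with both. The groups overlapped at 1 point, where busulfan 2 fell just below control 3 (log2 fold change 0.42, SE 0.09, adjusted p = 0.0180). The call was lost without control 2 (adjusted p = 0.05005). Col4a2 stood at 746, 728 and 907 CPM in control lung, 791, 756 and 668 with AOS, 1010.2, 918 and 1245 with busulfan, and 915, 1003 and 1066 with both. All of its busulfan libraries were above all of the others (log2 fold change 0.42, SE 0.09, adjusted p = 0.0151), and its fold of 1.34 equalled that of Col4a1 to 3 digits. The first exons of the pair run in opposite directions from overlapping starts, so reads of that short stretch cannot be assigned without strand information.

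Col4a3, a chain of the type IV collagen found in the alveolar and glomerular basement membranes, was at 367, 342 and 429 CPM in control lung, 342, 341 and 282 with AOS, 467, 471 and 545 with busulfan, and 378, 501 and 448 with both. Combined library 1 lay below control 3 and the other 5 busulfan libraries above all without it (log2 fold change 0.42, SE 0.09, adjusted p = 0.0145). Its partner chain Col4a4 ranged from 223 to 294 CPM without busulfan and from 267 to 374 CPM with it, a log2 fold change of 0.24 that did not pass (adjusted p = 0.0919).

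The laminin chains Lamb1 and Lamc1, the beta and gamma subunits shared by several laminins, both rose without overlap. Lamb1 was at 136, 144 and 161 CPM in control lung, 152, 153 and 141 with AOS, 168, 172 and 180.2 with busulfan, and 170.0, 182 and 197 with both (log2 fold change 0.27, SE 0.05, adjusted p = 0.0116). Lamc1 was at 218, 241 and 259 CPM in control lung, 250.08, 233 and 212 with AOS, 293, 301 and 327 with busulfan, and 269, 301 and 345 with both (log2 fold change 0.38, SE 0.07, adjusted p = 0.0104). Nid1, nidogen, which links laminin to type IV collagen, was at 176, 198 and 223 CPM in control lung, 251.2, 220.0 and 172 with AOS, 262, 236 and 297 with busulfan, and 238, 277 and 301 with both. AOS 1 reached into the busulfan range, so that 4 of 6 busulfan libraries were above all others (log2 fold change 0.38, SE 0.10, adjusted p = 0.0414). On leaving out 1 library at a time, Nid1 lost its call without control 1, control 2, AOS 2, AOS 3, busulfan 1, busulfan 3, combined 2 or combined 3, with adjusted p up to 0.0970. The alpha chains Lama4 and Lama5 did not pass, with log2 fold changes of 0.22 (adjusted p = 0.0780) and -0.06 (adjusted p = 0.694), and neither did Col8a1, Col15a1 and Col18a1, at 0.27, -0.20 and 0.22. Col15a1 was highest in AOS 1, at 38.9 CPM against 9.58 to 18.7 CPM in the other 11 libraries.

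Adhesive and matricellular glycoproteins link cells to the matrix or tune their response to it. Postn, periostin, a fibroblast product that promotes collagen crosslinking, stood at 352, 481 and 499 CPM in control lung, 487, 486 and 428 with AOS, 591, 534 and 579 with busulfan, and 607, 662 and 675 with both. The 6 busulfan libraries were all above the other 6 (log2 fold change 0.41, SE 0.08, adjusted p = 0.0132). Without control 2, control 3 and AOS 1 its log2 fold change was 0.59 (adjusted p = 0.0310). Sparc, which binds collagen and modulates adhesion, gave 1555, 1678 and 1679.7 CPM in control lung, 1749, 1692 and 1432 with AOS, 2076, 1822 and 2347 with busulfan, and 1912, 1969.7 and 2199 with both, again without overlap (log2 fold change 0.33, SE 0.08, adjusted p = 0.0206). The call was lost without control 1 (adjusted p = 0.0571).

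The other 5 genes of this class had larger SEs, 0.14 to 0.40, and none passed in this fit. Fn1, fibronectin, the provisional matrix protein of wounds, was at 380.2, 889.5 and 533 CPM in control lung, 517, 539 and 383 with AOS, 624, 531 and 1372 with busulfan, and 406, 519.9 and 687 with both. Busulfan 3 stood far above the other libraries and the rest overlapped (log2 fold change 0.33, SE 0.27, adjusted p = 0.458). Fn1 was at 0.05 without busulfan 3, 0.20 without control 1, 0.22 without combined 3 and 0.52 without control 2. Tnc, tenascin C, a matrix protein of injured tissue, was at 26.1, 30.8 and 44.5 CPM in control lung, 19.9, 31.0 and 29.9 with AOS, 37.8, 36.9 and 61.2 with busulfan, and 41.6, 32.3 and 67.4 with both, with 2 of 6 busulfan libraries above all others (log2 fold change 0.61, SE 0.22, adjusted p = 0.0957). Tnc was called higher with DESeq2 and with the replicate block. Thbs1, thrombospondin 1, an activator of latent TGF-beta, had the largest value of the class at 0.95 with an SE of 0.40, and did not pass (adjusted p = 0.146). Its libraries ranged from 108 to 401 CPM without and from 196 to 739 CPM with busulfan. Spp1, osteopontin, a product of macrophages in fibrotic lung, was at 82.0, 81.4 and 68.3 CPM in control lung, 65.3, 81.0 and 76.6 with AOS, 78.8, 60.4 and 79.2 with busulfan, and 75.1, 63.7 and 113 with both, with combined library 3 above the rest and the others overlapping (log2 fold change 0.04, SE 0.14, adjusted p = 0.858). Without combined 3 Spp1 was at -0.10. Thbs2 was low, at 3.03 to 7.25 CPM, with a log2 fold change of 0.00.

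**Figure D3:**
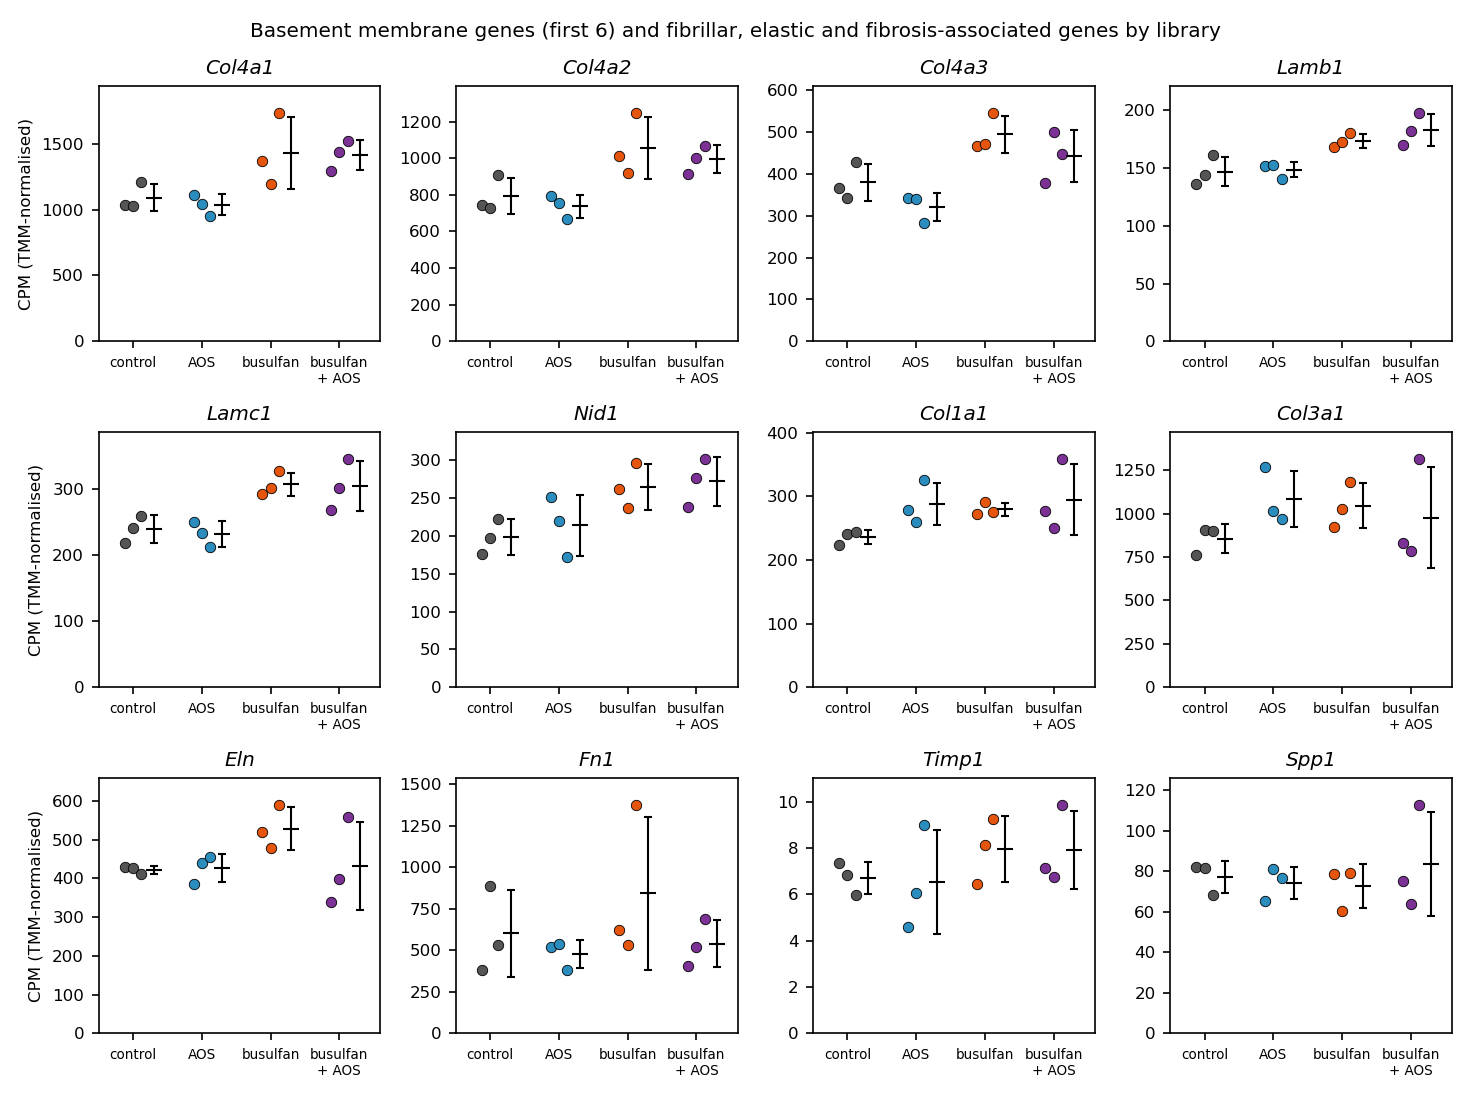
Levels in CPM (TMM-normalised) of 6 basement membrane genes (Col4a1, Col4a2, Col4a3, Lamb1, Lamc1, Nid1) and of Col1a1, Col3a1, Eln, Fn1, Timp1 and Spp1, 1 point per library in each of the 4 groups, with the group mean and SD (n = 3) beside the points. Lamb1, Lamc1 and Col4a2 show no overlap between libraries with and without busulfan, whereas Col1a1, Col3a1, Eln, Fn1, Timp1 and Spp1 overlap.

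The proteoglycan class holds small leucine-rich members, which coat collagen fibrils and set their diameter, and Vcan, which is not one of them. Bgn, biglycan, was at 1138, 1048 and 1318 CPM in control lung, 1121, 1174 and 1101 with AOS, 1372, 1384 and 1482 with busulfan, and 1336, 1368 and 1530.4 with both, with every busulfan library above all others (log2 fold change 0.30, SE 0.06, adjusted p = 0.0152). Ogn, osteoglycin, was at 841, 703 and 792 CPM in control lung, 768, 700.4 and 734 with AOS, 921, 965 and 852 with busulfan, and 860.1, 1022 and 917 with both, also with no overlap (log2 fold change 0.29, SE 0.06, adjusted p = 0.0160). Lum, Fmod and Vcan were low, at 6.85 to 24.1 CPM over all libraries, and gave 0.12, -0.47 and 0.04 with SEs of 0.28, 0.31 and 0.15, so a change of the size seen in Bgn could be missed there.

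Elastic fibres consist of an elastin core on a scaffold of fibrillin microfibrils, with fibulins and microfibril-associated proteins. Of the 9 genes 1 rose (11.1%, against 7.02% of all genes tested), Fbln5, fibulin 5, which is needed to assemble elastin. It stood at 134, 144 and 168 CPM in control lung, 148, 136 and 137 with AOS, 215, 163 and 175 with busulfan, and 176, 172 and 176 with both. In 5 of 6 busulfan libraries it was above all others (log2 fold change 0.31, SE 0.07, adjusted p = 0.0236). On leaving out 1 library at a time, Fbln5 lost its call without control 1, control 2, AOS 2 or AOS 3, with adjusted p up to 0.0602. Eln itself, elastin, was at 428, 426 and 410.4 CPM in control lung, 386, 439 and 455 with AOS, 519.9, 477 and 588 with busulfan, and 338, 399 and 558 with both. The busulfan group lay above both groups without the drug, while 2 of the 3 combined libraries did not (log2 fold change 0.17, SE 0.11, adjusted p = 0.324), and its 95% interval was -0.07 to 0.41. Mfap4 had a larger value than Fbln5, 0.44 with an SE of 0.14, and did not pass (adjusted p = 0.0659), with control 3 at 1140.4 CPM among controls otherwise at 734 and 625 CPM. Mfap4 was called higher without control 3, without combined 1 and with DESeq2. Eln was at 0.06 without combined 3. Emilin1 and Fbn1, fibrillin 1, gave 0.28 (adjusted p = 0.0926) and 0.19 (adjusted p = 0.218). Fbln1, Mfap5, Mfap2 and Fbln2 gave 0.24, 0.07, -0.15 and -0.25, and Fbln2 was highest in AOS 1, at 66.6 CPM.

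Fibrillar collagens are the bulk structural collagens and the ones that accumulate in scars. None of the 5 passed the threshold in this edgeR fit, and their 5 values were all above 0. Col1a1, the alpha 1 chain of type I collagen, was at 224, 240.3 and 244 CPM in control lung, 279, 261 and 325 with AOS, 273, 291 and 275 with busulfan, and 277, 250.02 and 358 with both. AOS 3 exceeded 5 of the 6 busulfan libraries (log2 fold change 0.14, SE 0.09, adjusted p = 0.309), and the 95% interval ran from -0.05 to 0.33. Col3a1, type III collagen, was at 763, 906 and 900.0 CPM in control lung, 1268, 1012 and 969 with AOS, 925, 1027 and 1182 with busulfan, and 833, 786 and 1312 with both, with overlapping groups (log2 fold change 0.07, SE 0.13, adjusted p = 0.767; 95% interval -0.23 to 0.36). Without combined 3 Col1a1 was at 0.06 and Col3a1 at -0.07. Col5a1, which nucleates type I fibrils, had the smallest p of the class, at 65.5, 67.9 and 73.5 CPM in control lung, 83.0, 69.4 and 64.5 with AOS, 77.1, 82.7 and 114 with busulfan, and 85.3, 82.2 and 97.8 with both (log2 fold change 0.35, SE 0.10, adjusted p = 0.0525). Col5a1 was called higher with DESeq2, without AOS 1 and without busulfan 1. Its partner Col5a2 had no overlap between the 6 busulfan libraries, at 187 to 242 CPM, and the 6 others, at 160.3 to 186 CPM, though its log2 fold change of 0.22 did not pass (adjusted p = 0.0931). Col1a2 gave 0.20 (adjusted p = 0.142).

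Type VI collagen forms beaded microfibrils around cells. Col6a3 had the smallest p of the microfibrillar and fibril-associated class, at 165, 158 and 211 CPM in control lung, 166, 168 and 181 with AOS, 183, 175 and 261 with busulfan, and 173, 231 and 246 with both, with 3 of 6 busulfan libraries above all others (log2 fold change 0.27, SE 0.12, adjusted p = 0.168). Col6a1, Col6a2 and Col12a1 gave 0.15, 0.14 and 0.09. Col16a1, the least abundant of the 56 genes per length, was at 1.63, 1.95 and 2.60 CPM in control lung, 11.8, 3.21 and 2.63 with AOS, 1.91, 3.22 and 3.31 with busulfan, and 1.75, 1.91 and 2.06 with both, with AOS 1, the library high in fat transcripts, above all others, and its log2 fold change of -0.58 had an SE of 0.36.

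Metalloproteinases cut matrix proteins, and TIMPs inhibit them. Mmp2, gelatinase A, was at 112, 104 and 143 CPM in control lung, 113, 135 and 101 with AOS, 129, 137 and 167 with busulfan, and 151, 168 and 213 with both, with 4 of 6 busulfan libraries above all others (log2 fold change 0.44, SE 0.12, adjusted p = 0.0383). On leaving out 1 library at a time, Mmp2 lost its call without control 1, control 2, AOS 1, AOS 3, busulfan 2, busulfan 3, combined 2 or combined 3, with adjusted p up to 0.0922. Timp3, the inhibitor that binds to the matrix, was at 1009, 961 and 1052 CPM in control lung, 842, 1014 and 891 with AOS, 1139, 1192 and 1236 with busulfan, and 1197, 1169.7 and 996 with both. Combined library 3 lay within the range without busulfan and the other 5 above it (log2 fold change 0.27, SE 0.06, adjusted p = 0.0242). On leaving out 1 library at a time, Timp3 lost its call without control 1, control 2, AOS 1, AOS 3, busulfan 3, combined 1 or combined 2, with adjusted p up to 0.0622. Timp1, an inhibitor often raised in fibrosis, was low, at 7.35, 6.81 and 5.97 CPM in control lung, 4.58, 6.06 and 8.99 with AOS, 6.46, 8.14 and 9.25 with busulfan, and 7.14, 6.76 and 9.84 with both, and its groups overlapped (log2 fold change 0.26, SE 0.18, adjusted p = 0.352). Timp1 was at 0.16 without AOS 1, 0.16 without combined 3 and 0.41 without AOS 3. Timp2, Mmp14, which activates Mmp2 at the cell surface, and Mmp3 gave 0.13 (adjusted p = 0.159), 0.03 and 0.01.

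**Figure D4:**
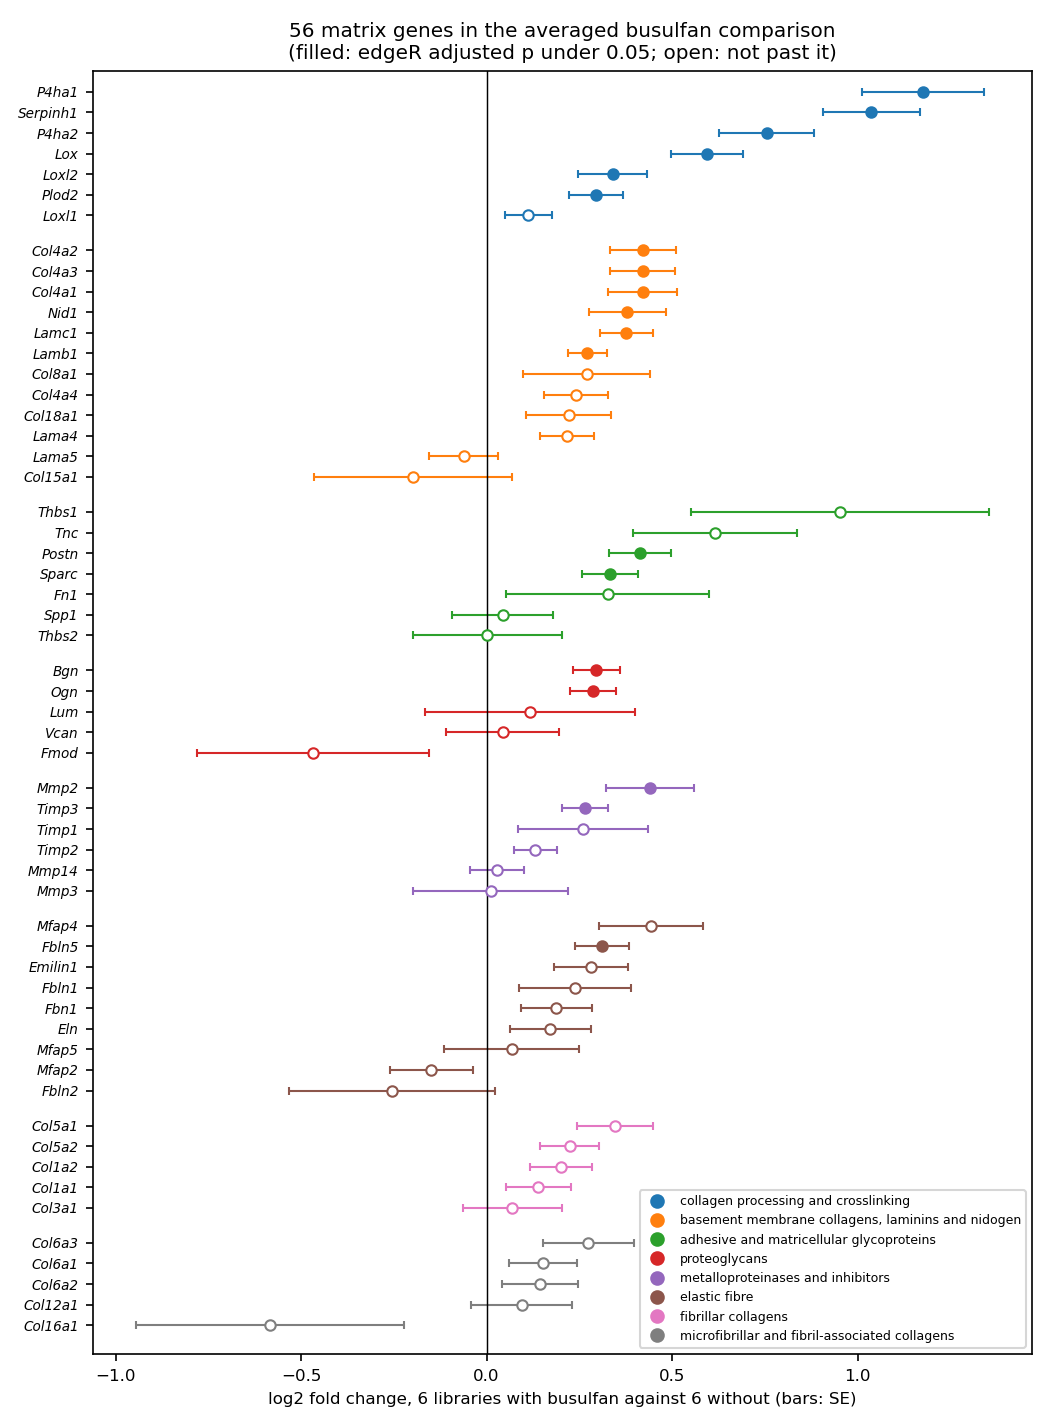
Log2 fold changes of the 56 matrix genes between the 6 libraries with and the 6 without busulfan, by class, with bars of 1 SE. Filled points passed an edgeR adjusted p under 0.05 and open points did not. P4ha1 and Serpinh1 lie at 1.18 and 1.04, the called basement membrane genes between 0.27 and 0.42, and the fibrillar collagens are all open, between 0.07 and 0.35.

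Over the averaged comparison 11 of the 56 genes had all busulfan libraries above all others, against 3.93% of all genes tested, and 0 had all below, against 2.61%. The 11 were Serpinh1, P4ha1, Lox, Col4a2, Lamb1, Lamc1, Bgn, Ogn, Postn, Sparc and Col5a2.

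The effect of busulfan without AOS was read from busulfan against control. None of the 56 genes passed in edgeR, against 0.731% of all genes higher and 0.479% lower, with 21 at an unadjusted p under 0.05, against 18.7% of all genes. DESeq2 called 8 of them higher (Col4a2, Lamc1, Bgn, Sparc, Lox, P4ha1, P4ha2 and Serpinh1), against 3.1% of all genes higher, and limma-voom called 0. Lox had the smallest p (log2 fold change 0.57, SE 0.14, adjusted p = 0.0742), followed by Serpinh1 (log2 fold change 0.77, SE 0.18, adjusted p = 0.0761) and P4ha1 (log2 fold change 0.91, SE 0.23, adjusted p = 0.0869). The 3 busulfan libraries were above the 3 controls without overlap for 25 of the 56 genes, against 11.8% of all genes, and below for 0, against 11.3%. Col1a1 and Col3a1 were among the 25, Col1a1 at a log2 fold change of 0.24 and Col3a1 at 0.29.

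The effect of busulfan in AOS-treated animals was read from the combined group against AOS. Here 4 of 56 genes rose and 0 fell, against 1.56% of all genes higher and 0.744% lower. All 4 were collagen processing genes, Serpinh1 (log2 fold change 1.30, SE 0.19, adjusted p = 0.0101), P4ha1 (log2 fold change 1.44, SE 0.23, adjusted p = 0.0183), P4ha2 (log2 fold change 0.89, SE 0.18, adjusted p = 0.0355) and Lox (log2 fold change 0.62, SE 0.14, adjusted p = 0.0458). DESeq2 called 17 higher, against 4.84% of all genes, and 1 lower, Col16a1. Serpinh1 kept its edgeR call in 10 of the 12 fits without 1 library, P4ha1 in 8, P4ha2 in 6 and Lox in 2. Leaving out AOS 1 gave 0 calls, with 0.218% of all genes called higher. Leaving out AOS 2, combined 1 or combined 2 gave 1 each, with 0.305%, 0.455% and 0.33% of all genes, and without control 2 the count was 2, with 0.923%. Without control 2, control 3 and AOS 1 together the count was 0, with 0.0674% of all genes and Serpinh1 at 1.32 (adjusted p = 0.127). The groups did not overlap for 22 genes that were higher, against 14.5% of all genes, and for 1 that was lower, Col16a1, against 12.8%.

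These comparisons share no library. Both log2 fold changes were above 0 for 42 of the 56 genes, 75%, against 34.1% of all genes tested. They were below 0 in both for Lama5 and Fmod, and opposite for 12 genes, among them Col3a1, Col16a1, Col15a1, Fbln2 and Spp1.

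**Figure D5:**
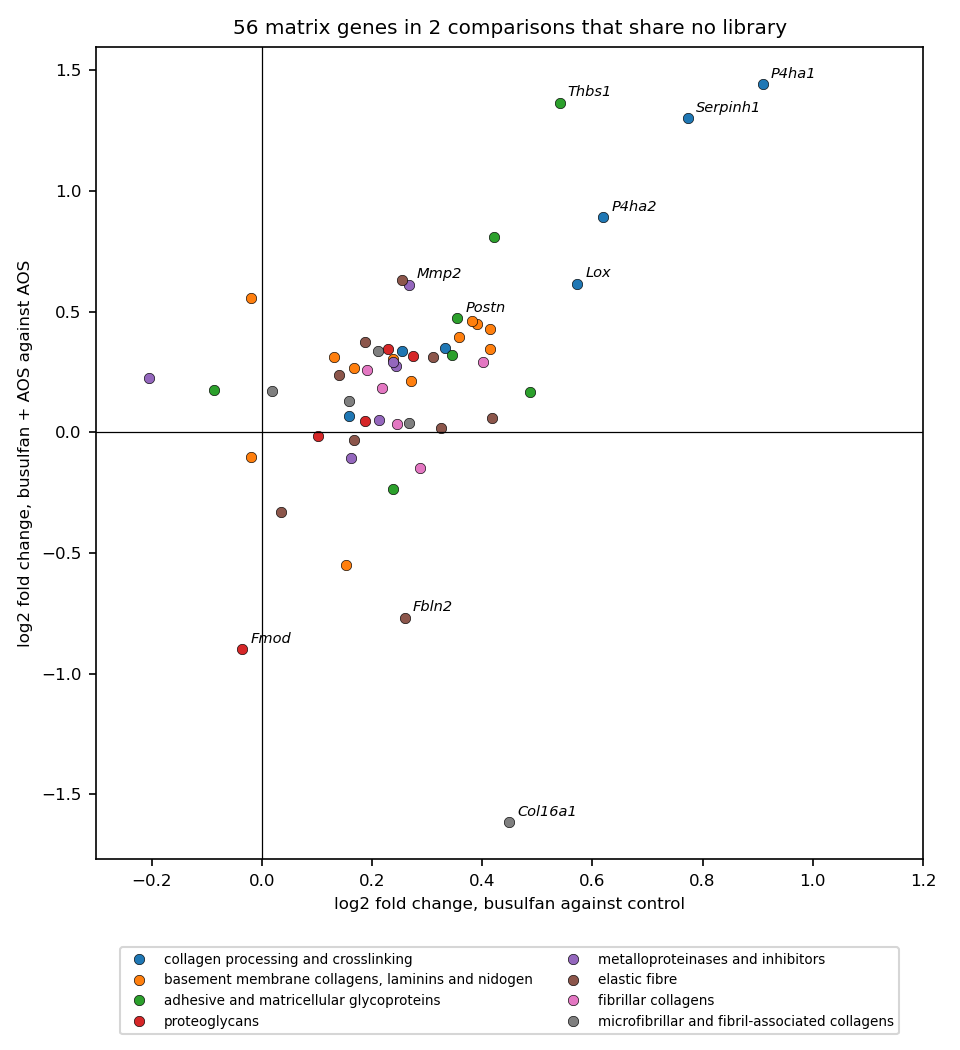
Each of the 56 matrix genes by its log2 fold change in busulfan against control (x axis) and in busulfan plus AOS against AOS (y axis), coloured by class. Most genes lie in the upper right quadrant, with P4ha1 at 0.91 and 1.44 and Serpinh1 at 0.77 and 1.30, and Col16a1 lies apart at 0.45 and -1.62.

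The combined group against control, which shares libraries with both comparisons above, gave 6 of 56 higher and 0 lower, against 2.43% of all genes higher and 1.65% lower. The 4 collagen processing genes were joined by Postn (log2 fold change 0.55, SE 0.12, adjusted p = 0.0350) and Lamb1 (log2 fold change 0.32, SE 0.07, adjusted p = 0.0432). Serpinh1 gave 1.24, P4ha1 1.33, P4ha2 0.95 and Lox 0.70 on the log2 scale. DESeq2 called 13 higher, Col1a2 among them, against 5.36% of all genes. Of the 12 edgeR fits without 1 library, Serpinh1 kept its call in 12, P4ha1 in 9, P4ha2 and Lox in 7, Postn in 5 and Lamb1 in 1. Without control 1, control 2 or combined 1 the count was 1, with 0.672%, 0.474% and 0.767% of all genes called higher, and without combined 2 it was 2, with 0.685%. With control 2, control 3 and AOS 1 left out it was 0, with 0.0184%.

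AOS itself was assessed in AOS against control, in the average over animals with and without busulfan, and in the combined group against busulfan. In each of the 3 comparisons 0 of the 56 genes passed in edgeR, DESeq2 or limma-voom, and edgeR called 0% of all genes. At an unadjusted edgeR p under 0.05 there were 2 of 56 genes in the first (Col1a1 and Col16a1), against 4.05% of all genes, 2 in the second (Col1a2 and Col4a3), against 5.34%, and 1 in the third (Serpinh1), against 6.34%. The median log2 fold changes of the 56 genes were -0.02, 0.01 and 0.01. Serpinh1 was 0.46 higher in the combined group than in the busulfan group on the log2 scale, with a 95% interval of 0.06 to 0.87 and an adjusted p of 0.769. Col1a1 in AOS against control gave 0.29, with a 95% interval of 0.02 to 0.56 (adjusted p = 0.999).

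Whether the busulfan effect differed between animals with and without AOS was tested by the interaction. It called 0 of 56 genes in all 3 tools, against 0% of all genes in edgeR, with 1 gene, Col16a1, at an unadjusted p under 0.05, against 4.79% of all genes. The interaction of Serpinh1 was 0.53 with a 95% interval of -0.05 to 1.10, and that of P4ha1 was 0.53 with an interval of -0.19 to 1.26.

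Another 110 matrix genes outside the list were in the table, and 100 of them were tested. In the averaged busulfan comparison 19 rose and 3 fell, against 7.02% of all genes tested that rose and 4.81% that fell. The median log2 fold change of the 100 was 0.18. The 6 with the smallest p among those that rose were Serpine2, a serine protease inhibitor of the matrix (0.61, SE 0.08, adjusted p = 0.00291), the protease Adamts15 (0.55), the lysyl oxidase Loxl4 (0.79), the laminin 332 chains Lamb3 (0.40) and Lama3 (0.53), and the lysyl hydroxylase Plod3 (0.28). The 3 that fell were the collagenase Mmp13 (-2.11, SE 0.38, adjusted p = 0.00888), the aggrecanase Adamts5 (-0.71, SE 0.13, adjusted p = 0.0104) and the tenascin Tnn (-0.59, SE 0.14, adjusted p = 0.0225). Mmp13 was near the limit of detection, at 0.612 to 2.74 CPM without and 0.243 to 0.589 CPM with busulfan, where 3 counts equal 0.177 to 0.188 CPM.

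Markers of the cells that make matrix, and of others the lung holds, were counted in the same comparison. Over all genes tested 7.02% rose and 4.81% fell. Of 13 fibroblast markers 2 rose and 0 fell, with a median of 0.18, and their summed level was 2478 to 2948 CPM without and 2729.55 to 3328 CPM with busulfan, overlapping. Of 8 smooth muscle markers 0 passed (median 0.07), and of 9 alveolar epithelial markers 3 rose (median 0.16). Of 8 endothelial markers 2 rose, Pecam1 and Car4, and 1 fell, Tek (median 0.09). Of 7 mesothelial markers 0 passed (median -0.14). The 8 club and goblet markers were all below 0 with a median of -1.96 and 0 passed, and they summed to 36860 to 62396 CPM without and 17991 to 42067 CPM with busulfan. Of 9 alveolar macrophage markers 7 were below 0 and 2 rose, Marco and Car4, where Car4 is the same gene counted among the endothelial markers. The 9 had a median of -0.43 and a sum of 622 to 916 CPM without and 539 to 831 CPM with busulfan. Of 8 interstitial macrophage and monocyte markers 0 passed (median -0.12). All 5 proliferation markers were above 0 (median 0.40) and 1, Top2a, rose, with sums of 36.1 to 48.0 CPM without and 43.1 to 85.4 CPM with busulfan. The 11 skeletal muscle markers, of which 2 fell, summed to 21.6 to 3854 CPM without and 5.70 to 628 CPM with busulfan. Of 13 cartilage markers 5 could be tested and 0 passed. Col2a1, which defines cartilage, was at 0 in the 9 libraries outside the combined group, and at 0.118 to 3.13 CPM within it. Its highest value was in combined 1, where the marker Acan was at 2.94 CPM and the cartilage markers summed to 19.5 CPM. That sum was the highest of the 12 libraries, and combined 1 also held the highest Serpinh1, P4ha1, P4ha2 and Plod2. The part of any cell type in the matrix gene changes was not tested.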

How the data were processed

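Total RNA from 12 lung libraries was sequenced, and the series has 1 table. Its estimated counts were deposited by the authors as raw values per gene, with 75.9 to 77.1% of them whole in each library. Its other values are taken as FPKM made by the authors. The header names no unit, but dividing each count by its library total and by 1 length per gene gives them (median coefficient of variation of that length 0.705%). Per the submitters' processing notes the genome build was mm10, while aligner, counter and strandedness are not stated.

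Groups and replicate numbers came from the titles, which write BA0 where the design text writes B0, taken here as busulfan alone. Rounded counts were filtered with filterByExpr and scaled by TMM (factors 0.963 to 1.03). One negative binomial model with 4 group means used every library, and 8 contrasts were tested by the quasi-likelihood test of edgeR 4.0.16 (R 4.3.3), Benjamini-Hochberg adjusted over the 15863 genes tested, at a threshold of 0.05. The common biological coefficient of variation was 0.229. A log2 fold change had a median SE of 0.13 for 3 against 3 libraries and 0.09 for 6 against 6. The limit of 3 counts that a count of 0 allows is 0.177 to 0.188 CPM, for counting error alone. The scripts were tested on simulated data.

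The members and lists were chosen with earlier results of these data known. Values per library are given for every called member, for the smallest p of each class, for Col1a1, Col3a1, Eln, Fn1, Timp1, Spp1 and Tnc, and for Loxl1 and Col16a1, which were picked with their values in view. Alternatives were DESeq2 1.42.0, limma-voom (limma 3.58.1), scaling by upper quartile or by median of ratios, no filter, at least 1 CPM in 3 libraries, only the groups compared, a replicate block, and leaving out each library. Same-numbered libraries of different groups did not deviate together (18 pairs, r from -0.25 to 0.18, 2 over 0.1), so the numbers were not treated as pairs. Replicates of a group were distinct beyond counting noise, with a chi-square of 17.5 to 38.7 per degree of freedom. Promoters came from RefSeq. Figures were drawn with Python 3.11.15, matplotlib 3.10.9, pandas 2.3.3 and numpy 2.4.6.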

Additional observations from a re-analysis of the deposited data

How the results depend on the processing

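Of the 38 named results, 808 recomputed values kept direction and side of the threshold in 624 cases, lost the call in 173, gained it in 5 and changed sign in 6. Counts of matrix genes called stayed at 0 for the combined group against busulfan, AOS against control, the AOS average and the interaction under every alternative run. For the averaged busulfan comparison the main count was 19. It was 24 with DESeq2 (9.71% of all genes called higher), 16 with upper-quartile factors (4.84%), 17 with the replicate block (5.3%), 12 to 20 leaving out 1 library at a time (4.09 to 6.28%), 1 with the 3 libraries without busulfan high in other-tissue transcripts left out together (0.435%) and 0 with all 5 such libraries left out (0.0124%). Upper-quartile factors also turned the split over all genes from 1114 higher and 763 lower to 767 higher and 1092 lower, while the 16 matrix genes called were all higher. For busulfan against control the count was 0 (0.731% of all genes called higher), against 8 with DESeq2 (3.1%). It was 1 with the replicate block (Lox) and 0 to 1 leaving out 1 library, where the 1 was Serpinh1. These counts of 1 are not read as a result about the matrix genes. For the combined group against AOS it was 4 (1.56%), against 18 with DESeq2 (17 higher, 4.84%, and 1 lower), 2 with only the groups compared (0.963%), 3 with the replicate block (0.756%), 0 to 4 leaving out 1 library (0.218 to 2.08%) and 0 without the 3 or the 5 libraries (0.0674% and 0%). For the combined group against control it was 6 (2.43%), against 13 with DESeq2 (5.36%), 4 with the replicate block (1.08%), 1 to 5 leaving out 1 library (0.474 to 2.73%) and 0 without the 3 or the 5 libraries (0.0184% and 0.0124%). Serpinh1, P4ha1, P4ha2, Lox, Lamc1, Lamb1, Postn, Col4a3, Col4a2, Bgn and Ogn kept their call in the averaged comparison in all 12 fits without 1 library. Col4a1 and Sparc lost it in 1 fit each, without control 2 and control 1. Fbln5, Timp3, Plod2, Mmp2, Nid1 and Loxl2 lost it in 4, 7, 8, 8, 8 and 9. Leaving out 1 library at a time moved Col3a1 between -0.0690 (without combined library 3) and 0.137, and Spp1 between -0.0953 (without the same library) and 0.126. Spp1 was at -0.0017 without AOS 1 and at -0.0464 and -0.237 without the 3 and the 5 libraries, and Timp1 at -0.0161 without the 5. Leaving out libraries widens the error, and the cause of the other changes was not tested. The replicate numbers do not pair the libraries: 2 of 12 libraries deviated most like the others of their own number.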
